A study of Mus musculus with 6 samples.

Results

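Microtubules are hollow polymers of alpha- and beta-tubulin dimers that carry cargo and shape the cell. Mouse cells make several alpha- and beta-tubulin isotypes from separate genes, and microtubule-associated proteins (MAPs) bind the polymer and stabilise it. Mapt encodes tau, a MAP best known from axons, and Map4 encodes its broadly expressed relative with the same kind of repeated microtubule-binding domain. The genes described here are Mapt, Map1b, Map4, the alpha-tubulin genes Tuba1a and Tuba1b, and the beta-tubulin genes Tubb2a, Tubb2b, Tubb4b, Tubb5 and Tubb6. These 10 genes were taken by symbol from 55401 genes in the count tables, and all 10 were among the 16807 genes that passed the filter on low counts and were tested. Mapt was selected on its higher counts in the comparison reported below, so its values are given as a description with no test, whereas the other 9 genes came with it as its partners and relatives in the microtubule.

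RNA-seq was run on whole subcutaneous white adipose tissue (scWAT) of male mice at 8 weeks of age, with 3 mice in each group. The 3 control libraries carry the genotype WT in the sample labels, and the study's methods name the controls YT-FF, that is, Yap and Taz floxed without Cre. The other 3 libraries are labelled Yapfl/fl/Tazfl/fl;AdipoqCre (YT-AKO). There Cre is under the control of the Adipoq promoter, so the deletion is constitutive and limited to mature adipocytes, and the other cells of the tissue keep both genes. Yap1 encodes YAP and Wwtr1 encodes TAZ, both transcriptional coactivators, and the comparison asks how their loss in adipocytes changes the RNA of the whole tissue.

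Library totals ran from 17740987 to 21838493 counts. In CPM (counts scaled to library size with TMM factors), Yap1 was lower in every library labelled YT-AKO (28.97 to 37.68 against 57.04 to 69.03). Wwtr1 was higher (132.7 to 175.0 against 75.87 to 98.62), so the RNA of 1 of the 2 targeted genes did not fall. By immunoblot, the paper reports less YAP and TAZ protein in scWAT of YT-AKO mice. The tables give 1 count per gene for all its exons together and cannot show the loss of single exons. YT-AKO 2 stood apart, with a TMM factor of 0.7775 against 0.9539 to 1.156 in the other 5 libraries. Fold changes also fell with gene length (Spearman's rho -0.376 over the tested genes, a description since genes are no replicates, and -0.283 without YT-AKO 2). The adipocyte marker Adipoq stood at 1471 to 1996 CPM in WT and 1936 to 2399 CPM in YT-AKO. In bulk tissue, fewer cells of a type and less RNA per cell cannot be told apart.

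The coding sequences of the tubulins begin almost alike, and they are shown because this start is what the cell reads when it adjusts tubulin mRNA. In that feedback, the factor TTC5 recognises the first residues of a new tubulin chain on the ribosome and the message is then degraded when free tubulin is plentiful. The first 24 coding bases are printed 5′ to 3′ for 6 of the tubulin genes, from GENCODE transcripts on GRCm38, with the first 12 bases in capitals.
Tuba1a: ATGCGTGAGTGCatctccatccat
Tuba1b: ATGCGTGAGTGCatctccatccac
Tubb2a: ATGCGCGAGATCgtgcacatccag
Tubb2b: ATGCGAGAGATCgtgcacattcag
Tubb4b: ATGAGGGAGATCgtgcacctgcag
Tubb5: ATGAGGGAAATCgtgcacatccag
All 6 lie on the minus strand: Tuba1a and Tuba1b on chromosome 15 (98951671 to 98953453 and 98933175 to 98934335, the spliced starts with an intron between), Tubb2a and Tubb2b on chromosome 13 (34077906 to 34077929 and 34130210 to 34130233), Tubb4b on chromosome 2 (25224567 to 25224590) and Tubb5 on chromosome 17 (35838030 to 35838053). The capitals are the same in Tuba1a and Tuba1b. Over the whole coding sequence, Tuba1a and Tuba1b were identical at 98.3% of 1353 aligned bases and Tubb2a and Tubb2b at 96.5% of 1335, whereas Tubb4b and Tubb5 matched at 82.4% of 1332.

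Mapt had the largest log2 fold change of the 10 genes. The gene (ENSMUSG00000018411, chromosome 11, 104231390 to 104332090 of GRCm38) was counted 106, 122 and 130 times in WT 1 to 3 and 457, 553 and 581 times in YT-AKO 1 to 3. In CPM these were 4.51, 5.35 and 6.68 in WT and 26.5, 32.6 and 34.3 in YT-AKO. The groups did not overlap, and the lowest YT-AKO library was well over the highest of the controls. The means were 5.52 ± 1.10 and 31.1 ± 4.07 CPM (SD, n = 3). The log2 fold change was thus 2.50 with a standard error of 0.219 (5.65-fold), which ranked 127 among the 16807 tested genes. It stayed between 2.37 and 2.66 when single libraries were left out, and it was 2.82 with a correction for gene length.

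Markers of other cells were set beside Mapt. Tau is abundant in neurons. Of 14 neuron markers, Th and Dbh, for enzymes of noradrenaline synthesis in sympathetic neurons, had 0 counts in all 6 libraries. These counts allow up to 0.128 to 0.177 CPM at 3 counts per library (counting error only). By immunostaining of cleared scWAT for TH, the protein of Th, the paper reports denser sympathetic innervation in YT-AKO mice. Counts of Th RNA are thus no measure of the nerve fibres in the tissue. The summed level of the neuron markers was 12.7 to 16.5 CPM in WT and 16.1 to 23.3 CPM in YT-AKO. Uchl1, 1 of the 7 tested markers, was called higher, where 12.6% of all tested genes were. Tubb3, the neuronal beta-tubulin, stayed at 0.154 to 0.468 CPM in WT and 0 to 0.413 CPM in YT-AKO. Thermogenic adipocyte markers moved with Mapt: 7 of 8 were called higher, among them Ucp1 and Elovl3, and their summed level went from 175 to 264 CPM in WT to 1724 to 3662 CPM in YT-AKO. The part of either cell type in the Mapt values was not tested.

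The exons of Mapt are its own. None of its 7531 exon bases overlapped an exon of another gene, and none of its 50-base words occurred in a transcript of another gene. The 4 nearest tested genes on chromosome 11 did not pass the threshold in edgeR. Kansl1, whose end lies 1139 bases from that of Mapt, had 77.6 to 100.5 CPM in WT and 32.7 to 60.0 CPM in YT-AKO (log2 fold change -0.82, adjusted p = 0.0528). Nsf and Cdc27 also had lower values in YT-AKO (log2 fold changes -0.45 and -0.56, adjusted p = 0.105 and 0.0663), and Arf2 had a log2 fold change of 0.32 (adjusted p = 0.158).

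The 5 genes with a profile most like that of Mapt over the 6 libraries were Gys2, Plin5, Clstn3, Khdrbs3 and Mup3, by the root mean square difference of centred log2 CPM among 15179 genes with a mean of at least 1 CPM. This difference was 0.154 for Gys2, which encodes the liver-type glycogen synthase, and 0.160 for Plin5, a lipid droplet coat protein of oxidative tissues. Gys2 had 8.13, 9.92 and 16.2 CPM in WT and 47.4, 60.4 and 61.4 CPM in YT-AKO. Clstn3, a calsyntenin gene, had a difference of 0.164, Khdrbs3, an RNA-binding protein of splicing, 0.194, and Mup3, of the multigene family of major urinary proteins, 0.209. They lie on chromosomes 4, 6, 15 and 17, and none is a neighbour of Mapt. Likeness over 6 libraries in 2 groups is mostly a likeness of the step between the groups.

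**Figure D1:**
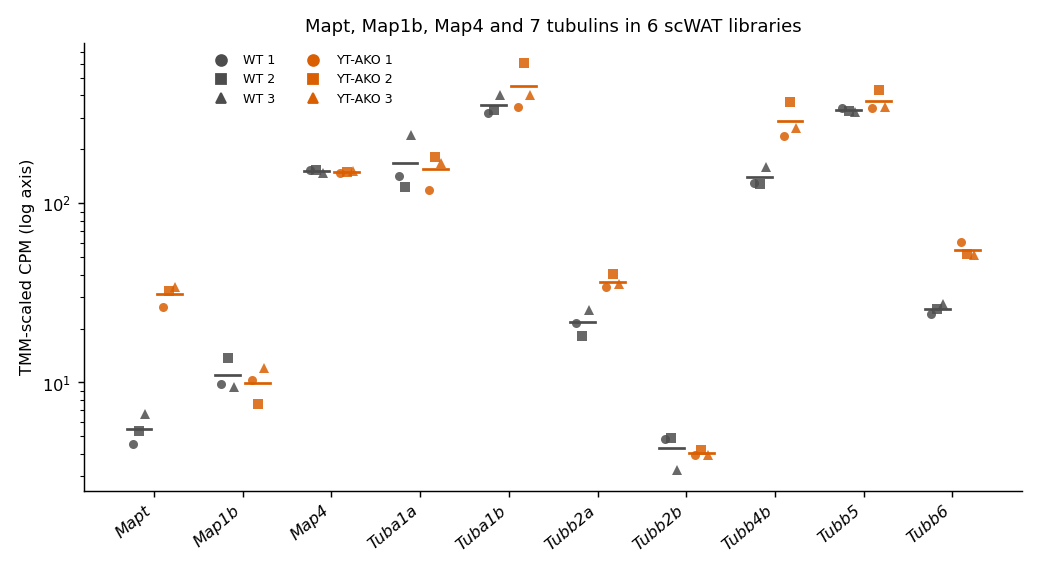
TMM-scaled CPM (log axis) of the 10 genes in each library, with grey points for WT 1 to 3, orange points for the libraries labelled YT-AKO 1 to 3 and a line at each group mean. The groups do not overlap for Mapt, Tubb2a, Tubb4b, Tubb5 and Tubb6, and Map4 lies between 147.6 and 153.7 CPM in all 6 libraries.

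The other structural MAPs among the 10 genes did not follow Mapt. Map4 (ENSMUSG00000032479, chromosome 9, 109931460 to 110083955) had 153.0, 153.7 and 147.6 CPM in WT and 147.7, 149.2 and 152.1 CPM in YT-AKO. The groups overlapped, and the log2 fold change was -0.02 (95% interval -0.34 to 0.30, adjusted p = 0.937 from edgeR). Map1b (ENSMUSG00000052727, chromosome 13, 99421446 to 99516540), a MAP of growing axons, had 9.75, 13.8 and 9.46 CPM in WT and 10.3, 7.60 and 12.04 CPM in YT-AKO, with a log2 fold change of -0.14 (95% interval -0.73 to 0.45, adjusted p = 0.700). Both are long transcripts, with 15143 and 15846 exon bases, and their log2 fold changes changed sign under the correction for gene length, to 0.57 and 0.44 (adjusted p = 0.0535 and 0.183). Per length, Mapt was 7.35% ± 1.62 of the Map4 level in WT and 41.8% ± 4.96 in YT-AKO (ratio of TPM, which are counts divided by exon length and scaled to the same sum in every library, SD, n = 3), with 5.93, 7.003 and 9.11% in WT and 36.1, 43.9 and 45.3% in YT-AKO. Map4 therefore had the higher level in every library.

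Of the 9 genes other than Mapt, 3 were called higher in YT-AKO at an adjusted p under 0.05 and 0 lower, and all 3 were beta-tubulins. Over all tested genes, edgeR called 12.6% higher and 9.01% lower. In CPM, 5 of the 10 genes had every YT-AKO library above every WT library and 0 had every one below, against 25.7% and 25.8% of all tested genes, and Mapt, picked for its rise, is 1 of those 5. The median log2 fold change was 0.17 over the 9 genes and -0.02 over all tested genes.

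Tubb4b, which encodes a broadly expressed beta-tubulin that is also a component of cilia, had the highest level in TPM of the 3 genes that rose. The gene (ENSMUSG00000036752, chromosome 2, 25222160 to 25224702) had 130.4, 128.8 and 159.7 CPM in WT and 239.1, 365.6 and 264.1 CPM in YT-AKO. The groups were apart, with YT-AKO 2 the highest. The log2 fold change was 1.05 (standard error 0.210, 2.07-fold, adjusted p = 0.0212 from edgeR), and 0.85 without YT-AKO 2 (adjusted p = 0.00463). Tubb6 (ENSMUSG00000001473, chromosome 18, 67390717 to 67402749), a minor beta-tubulin of many tissues, had 24.1, 25.7 and 27.6 CPM in WT and 60.8, 52.1 and 51.4 CPM in YT-AKO. Its groups did not overlap either, and its log2 fold change was 1.09 (standard error 0.150, 2.13-fold, adjusted p = 0.0166). Tubb2a (ENSMUSG00000058672, chromosome 13, 34074274 to 34078007) had 21.4, 18.3 and 25.4 CPM in WT and 34.1, 40.3 and 35.3 CPM in YT-AKO, a log2 fold change of 0.75 (standard error 0.177, 1.69-fold, adjusted p = 0.0282). The Tubb2a call was lost with the correction for gene length (log2 fold change 0.38, adjusted p = 0.116) and with library totals alone as scale (0.43, adjusted p = 0.0995). Without WT 1 or without WT 2, the adjusted p of the 3 genes rose to between 0.110 and 0.138, and over all tested genes 0% were called higher and at most 0.0117% lower. Without WT 3 all 3 kept their calls.

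The tubulins with the highest levels in WT were not called. Tuba1b (ENSMUSG00000023004, chromosome 15, 98931425 to 98934565), a broadly expressed alpha-tubulin, had 320.3, 332.6 and 404.7 CPM in WT and 346.5, 607.0 and 401.1 CPM in YT-AKO, with a log2 fold change of 0.36 (95% interval -0.21 to 0.92, adjusted p = 0.301). This value rested on YT-AKO 2, and it was 0.08 without that library. Tubb5 (ENSMUSG00000001525, chromosome 17, 35833921 to 35838306), the constitutive beta-tubulin, had 338.9, 327.2 and 324.8 CPM in WT and 342.3, 427.9 and 345.9 CPM in YT-AKO. Its groups did not overlap, but by a narrow margin, and its log2 fold change was 0.17 (95% interval -0.22 to 0.56, adjusted p = 0.467). Tuba1a (ENSMUSG00000072235, chromosome 15, 98949837 to 98953703), an alpha-tubulin prominent in developing neurons, had 142.4, 123.3 and 240.4 CPM in WT and 119.2, 180.9 and 168.8 CPM in YT-AKO (log2 fold change -0.11, 95% interval -0.77 to 0.55, adjusted p = 0.793). Tubb2b (ENSMUSG00000045136, chromosome 13, 34126748 to 34130466), the near copy of Tubb2a, had 4.81, 4.91 and 3.24 CPM in WT and 3.95, 4.18 and 3.95 CPM in YT-AKO (log2 fold change -0.10, 95% interval -0.73 to 0.53, adjusted p = 0.796).

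The CPM values of near-identical tubulins are uncertain, because fragments that mapped to several places were left out. Of the 50-base words of the transcripts, 75.5% of those of Tuba1a and 75.1% of those of Tuba1b also occurred in another gene, mostly Tuba1c. The share was 49.6% for Tubb2a and 36.9% for Tubb2b, each mostly with the other, and 41.3% for Tubb4b, mostly with its pseudogenes. It was 0% for Tubb6 and 0.0892% for Tubb5. Exons of Tuba1a and Tuba1b also overlapped other annotated genes over 26.2% and 27.4% of their bases, and those of Tubb4b over 5.80%, with the antisense gene Fam166a. Counting did not use strand, so reads of a gene and its antisense partner cannot be told apart where their exons overlap.

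**Figure D2:**
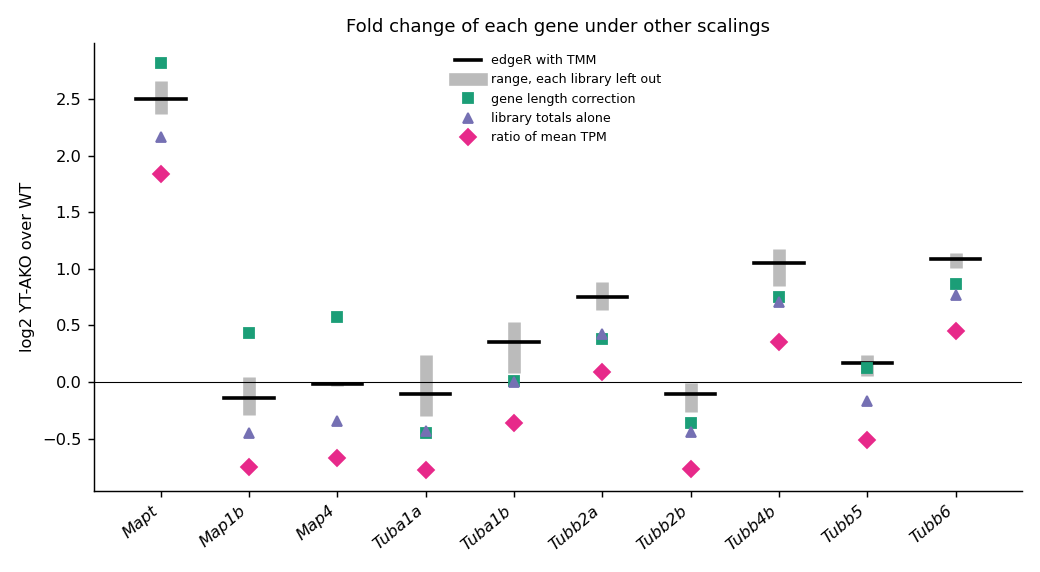
Log2 ratio of YT-AKO to WT of each gene by edgeR with TMM factors (black line), its range with each library left out (grey bar), with the correction for gene length (green square), with library totals alone (violet triangle) and as the ratio of mean TPM (pink diamond). Mapt, Tubb2a, Tubb4b and Tubb6 stay above 0 at every mark, whereas Tubb5 and Tuba1b lie on either side of 0.

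Direction depended on the scale for some of the genes that were not called. The median log2 ratio of all tested genes was -0.02 with TMM factors, -0.34 with library totals alone and -0.66 in TPM. In TPM, the log2 ratio of YT-AKO to WT was 1.84 for Mapt, 0.45 for Tubb6, 0.35 for Tubb4b and 0.09 for Tubb2a, and below 0 for the other 6 genes, among them Tuba1b (-0.36) and Tubb5 (-0.51). Relative to the median of all genes on that scale, the ratios were 2.50 for Mapt, 1.11 for Tubb6, 1.01 for Tubb4b, 0.75 for Tubb2a, 0.30 for Tuba1b and 0.15 for Tubb5. In TPM the groups of Tubb2a and Tubb6 overlapped, with YT-AKO 2 at 43.9 and 37.5 TPM, respectively.

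Levels of different genes were compared per length, in TPM. In WT, Tuba1b had the highest level (713 ± 61.9, mean ± SD, n = 3), followed by Tubb5 (378 ± 21.9), Tuba1a (352 ± 114), Tubb4b (254 ± 19.8), Tubb2a (51.0 ± 6.08), Tubb6 (40.2 ± 1.96), Map4 (38.1 ± 2.57), Tubb2b (7.21 ± 1.84), Mapt (2.77 ± 0.451) and Map1b (2.65 ± 0.687). The libraries of Tubb5 and Tuba1a, of Tuba1a and Tubb4b, of Tubb6 and Map4, and of Mapt and Map1b overlapped, so the order of these neighbours is not resolved. In YT-AKO the order was Tuba1b (556 ± 35.02), Tubb4b (324 ± 18.9), Tubb5 (265 ± 34.4), Tuba1a (205 ± 43.3), Tubb6 (54.9 ± 16.3), Tubb2a (54.3 ± 8.97), Map4 (23.96 ± 5.78), Mapt (9.94 ± 2.41), Tubb2b (4.23 ± 0.897) and Map1b (1.57 ± 0.647). There, Tubb5 overlapped Tuba1a and Tubb6 overlapped Tubb2a. In these TPM Tubb4b stood below Tubb5 in all WT libraries and above it in all YT-AKO libraries. Shared sequence can lower the counts of some genes more than others, so these orders hold for the counted fragments only.

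Shares within a family do not depend on the scaling of libraries. Tubb4b made up 32.5, 32.7 and 37.3% of the summed beta-tubulin TPM in WT 1 to 3 and 42.7, 49.3 and 45.4% in YT-AKO 1 to 3. Tubb5 made up 52.9, 52.2 and 47.6% in WT and 38.4, 36.2 and 37.3% in YT-AKO. The shares of both genes were apart between the groups in all libraries, and Tubb4b and Tubb5 exchanged the first place. The mean share of Tubb4b went from 34.2% ± 2.70 to 45.8% ± 3.34 and that of Tubb5 from 50.9% ± 2.91 to 37.3% ± 1.07 (SD, n = 3). Tubb6 went from 5.41% ± 0.250 to 7.63% ± 1.65, and Tubb2b from 0.971% ± 0.247 to 0.591% ± 0.0682, both also without overlap. Tubb2a went from 6.87% ± 0.835 to 7.61% ± 0.482, with overlapping groups. The difference of Tubb6 went from 2.22 to 1.38 percentage points without YT-AKO 1, and that of Tubb2a from 0.736 to 0.309 without WT 2 and to 1.14 without WT 3.

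A two-sided exact permutation test gave p = 0.1 for the shares of Tubb4b, Tubb5, Tubb6 and Tubb2b, the smallest p that 3 libraries against 3 allow, and 0.32 after Benjamini-Hochberg adjustment over the 16 isotype shares compared. The shift of Tubb4b was between 9.88 and 13.2 percentage points and that of Tubb5 between -15.3 and -12.6 in counts not divided by length, over the members alone and with each library left out. Tubb4b is the shorter transcript (2088 exon bases against 3327 for Tubb5). With the correction for gene length the log2 fold changes of the 2 genes were 0.75 and 0.12.

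Among the alpha-tubulins, the order was the same in both groups. Tuba1b made up 56.2% ± 3.03 of the alpha-tubulin TPM in WT and 59.6% ± 4.82 in YT-AKO, and Tuba1a 27.2% ± 5.10 and 21.8% ± 2.62 (two-sided exact permutation test, p = 0.4 and 0.2, and 0.533 and 0.356 adjusted). Single libraries moved both differences: that of Tuba1b went from 3.39 to 0.609 percentage points without YT-AKO 2 and to 1.85 without WT 3, and that of Tuba1a from -5.42 to -2.63 without WT 3. Tuba8, an isotype best known from muscle and testis, was the alpha-tubulin whose share did not overlap, at 0.772% ± 0.331 in WT and 2.24% ± 0.944 in YT-AKO. The ratio of alpha- to beta-tubulin TPM was 1.58, 1.59 and 1.98 in WT and 1.21, 1.40 and 1.35 in YT-AKO (p = 0.1 by the same exact test, no overlap). The 7 tubulins described here held 88.0 to 90.2% of all alpha- and beta-tubulin TPM in WT and 87.0 to 91.1% in YT-AKO.

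**Figure D3:**
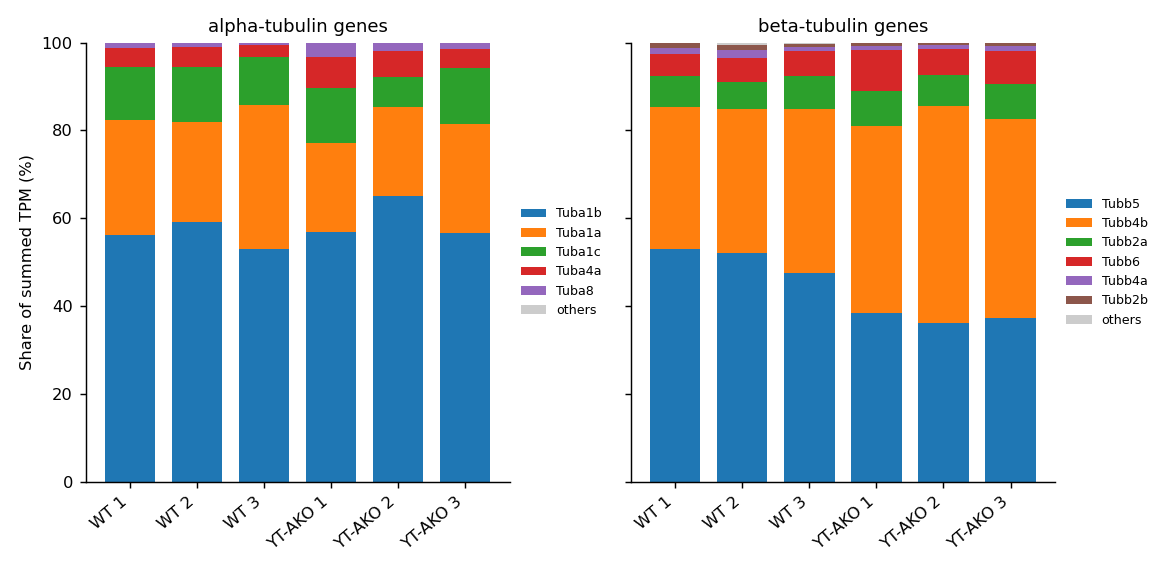
Share of each isotype in the summed TPM of 8 alpha-tubulin genes (left) and 8 beta-tubulin genes (right), in percent, for each library. Tubb5 is the largest beta-tubulin share in the 3 WT libraries and Tubb4b in the 3 libraries labelled YT-AKO, while Tuba1b is the largest alpha-tubulin share in all 6. The shares are not corrected for sequence that genes have in common.

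The wider tubulin family was followed in a list of 20 genes, of which 15 were tested. Of these, 6 were called higher and 0 lower (4 and 0 with the correction for gene length, without Tubb2a and Tuba4a, and 0 and 0 without WT 1 or WT 2). Over all tested genes the shares were 12.6% and 9.01%, and 10.07% and 4.54% with the correction for gene length. Without WT 1 or WT 2 they were 0% and at most 0.0117%. The 3 called genes that are not among the genes above were Tuba8, Tuba4a and Tubg1. Tubg1, the gamma-tubulin that nucleates microtubules, had 25.2, 26.0 and 31.9 CPM in WT and 46.9, 57.1 and 53.5 CPM in YT-AKO (log2 fold change 0.92, standard error 0.165, adjusted p = 0.0185). Tuba8 had 7.49, 5.40 and 3.96 CPM in WT and 24.2, 22.1 and 12.5 CPM in YT-AKO (log2 fold change 1.80, standard error 0.335, adjusted p = 0.0195). Tuba4a, an alpha-tubulin of muscle and brain among other tissues, had 48.7, 49.8 and 43.2 CPM in WT and 85.4, 106.3 and 58.7 CPM in YT-AKO (log2 fold change 0.82, standard error 0.225, adjusted p = 0.0400). Skeletal muscle markers summed to 438, 118 and 170 CPM in WT 1 to 3 and to 3137, 450 and 210 CPM in YT-AKO 1 to 3, and 1 of the 7 tested markers, Acta1, was called higher. Without YT-AKO 1, the library with the most muscle RNA, Tuba8 kept its call (log2 fold change 1.63, adjusted p = 0.0298) and Tuba4a did not (0.82, adjusted p = 0.0674). The log2 fold change of Tuba4a was 0.82 with and without that library, and the part of muscle in either gene was not tested. Tuba4a shares 37.3% of its exon bases with the antisense gene Stk16, which was itself called higher (log2 fold change 0.82, adjusted p = 0.0239). In counts made without strand, fragments of these genes cannot be told apart in the shared bases. Their part in the difference of Tuba4a was not tested. Tuba8 shares 16.3% of its exon bases with Gm15856.

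The remaining 5 tested tubulins of the list were not called. Tuba1c (log2 fold change 0.05, adjusted p = 0.841), Tubb4a (0.17, adjusted p = 0.645), Tubd1 (0.22, adjusted p = 0.436) and Tubg2 (-0.09, adjusted p = 0.881) were close to 0. Tube1, the epsilon-tubulin of centrioles, had 2.34, 2.98 and 2.73 CPM in WT and 1.45, 0.412 and 0.885 CPM in YT-AKO, without overlap (log2 fold change -1.54, adjusted p = 0.0541). Tuba3a, Tuba3b, Tubal3, Tubb1 and Tubb3 were too low to be tested.

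**Figure D4:**
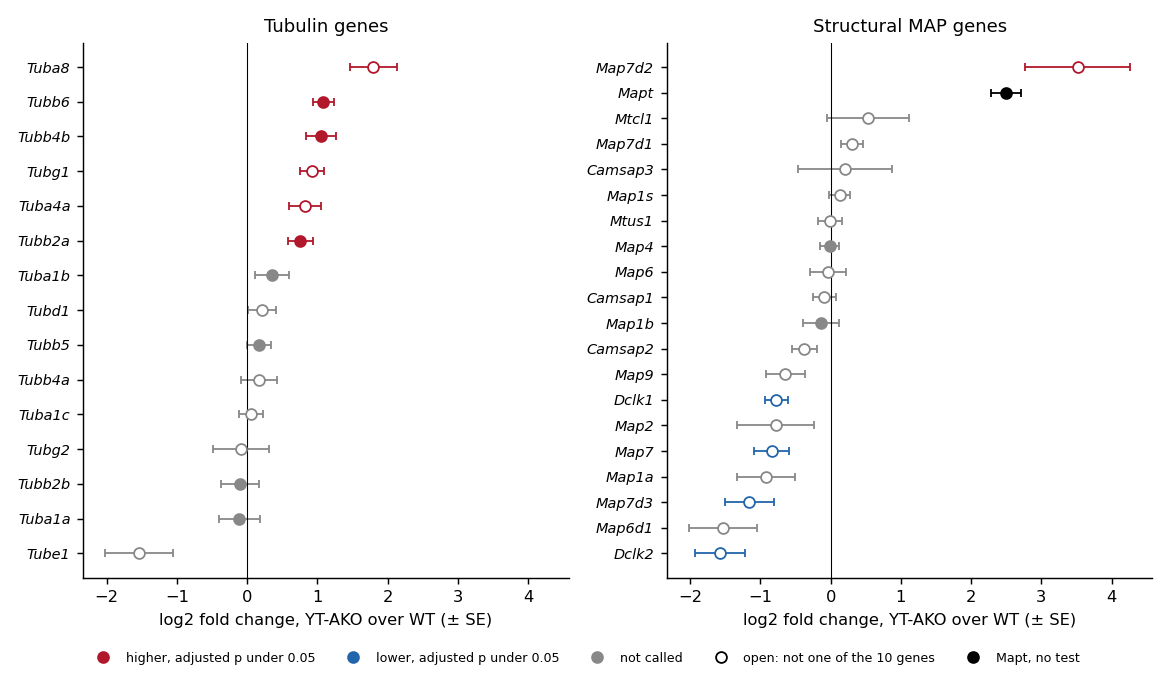
Log2 fold change of YT-AKO over WT (points, with bars of 1 standard error) of the tested tubulin genes (left, 15 genes) and structural MAP genes (right, 20 genes), filled for the 10 genes described. Tuba8 (1.80), Tubb6 (1.09) and Tubb4b (1.05) lead the tubulins, and Map7d2 (3.52) and Mapt (2.50) lie above the other MAPs.

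Among structural MAPs, 20 of 22 listed genes were tested. Of the 19 other than Mapt, 1 was called higher and 4 lower, where 12.6% and 9.01% of all tested genes were. Map7d2, a cofactor of kinesin-1, was the gene called higher, with 1, 6 and 5 counts in WT and 59, 38 and 15 counts in YT-AKO (0.0426 to 0.263 CPM against 0.885 to 3.43 CPM, log2 fold change 3.52, standard error 0.751, adjusted p = 0.0239), and rests on few counts. The 4 genes called lower were Dclk2, Map7d3, Map7 and Dclk1. The doublecortin-like kinase gene Dclk2 had 20.9, 20.8 and 16.4 CPM in WT and 9.99, 3.59 and 5.84 CPM in YT-AKO (log2 fold change -1.58, adjusted p = 0.0263). Dclk1 fell by 0.77, Map7 by 0.84 and Map7d3 by 1.16 on the log2 scale (adjusted p = 0.0227, 0.0478 and 0.0489), and none of the 4 overlapped between the groups. Of the 20 tested structural MAP genes, 8 had every YT-AKO library below every WT library, where 25.8% of all tested genes did. Without any 1 of the WT libraries 0 of the 19 genes were called in either direction, and 2 were called lower without YT-AKO 1 and 1 without YT-AKO 3. Of all tested genes, at most 0.0117% were called lower without WT 1 or WT 2, and 3.02% without WT 3. This share was 8.245% without YT-AKO 1 and 5.124% without YT-AKO 3. With the correction for gene length, Dclk1 (log2 fold change -0.20, adjusted p = 0.372) and Map7 (-0.50, adjusted p = 0.154) were no longer called. Map2, the closest relative of Mapt beside Map4, had 1.18 to 1.62 CPM in WT and 0.295 to 1.30 CPM in YT-AKO (log2 fold change -0.78, adjusted p = 0.309), and Dcx had 0 counts in every library.

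Tubulin folding was the microtubule list with the highest median. New tubulin passes from prefoldin to the chaperonin CCT and then to cofactors that join alpha to beta. Of 22 folding genes, 10 were called higher and 0 lower, where 12.6% and 9.01% of all tested genes were, and the median log2 fold change was 0.81 against -0.02 over all genes. Among the cofactors, 4 of 7 were called higher: Arl2 (log2 fold change 1.60, adjusted p = 0.0257), Tbcc (1.41, adjusted p = 0.0271), Tbca (1.34, adjusted p = 0.0228) and Tbcb (1.31, adjusted p = 0.0436). Tbca, which holds beta-tubulin, had 37.8, 38.5 and 42.9 CPM in WT and 78.7, 148.1 and 74.0 CPM in YT-AKO. Among prefoldin subunits, 3 of 6 were called higher, with Pfdn6 at a log2 fold change of 1.62 (adjusted p = 0.0291), and among CCT subunits 3 of 8, with Cct7 at 1.04 (adjusted p = 0.0360). Ttc5, the reader of the tubulin start printed above, was not called, with 44.0 to 50.9 CPM in WT and 35.9 to 47.4 CPM in YT-AKO (log2 fold change -0.25, adjusted p = 0.284).

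For Tbca, for Cct7 and for the summed level of the folding list, YT-AKO 2 was the highest library. That sum was 1507, 1494 and 1691 CPM in WT 1 to 3 and 2219, 3512 and 2013 CPM in YT-AKO 1 to 3. Without YT-AKO 2, 12 folding genes were called higher and 2 lower, with a median of 0.50, where 16.86% and 13.98% of all tested genes were. With the correction for gene length, 6 were called higher and 0 lower (median 0.61), where 10.07% and 4.54% of all tested genes were. With library totals alone, 4 were called higher and 3 lower (median 0.45), where 6.765% and 16.78% of all tested genes were. Without WT 1, WT 2 or WT 3, 0 folding genes were called, with medians of 0.80, 0.78 and 0.83. Without WT 1 or WT 2, 0% of all tested genes were called higher, so the 0 calls there are not particular to this list. Without WT 3, 4.03% of all tested genes were called higher and 3.02% lower.

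**Figure D5:**
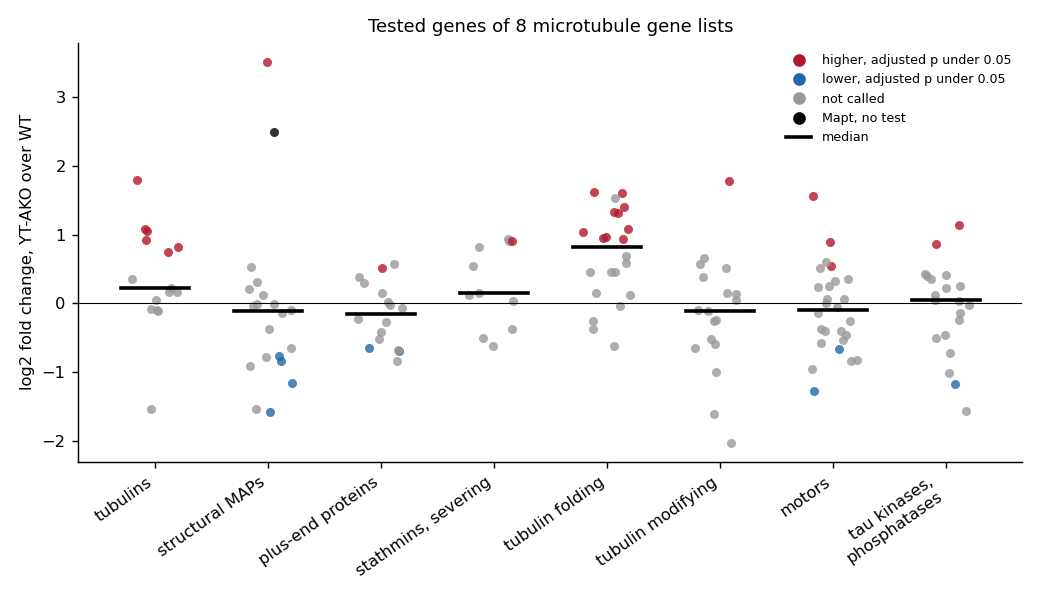
Log2 fold change of YT-AKO over WT of the tested genes in 8 lists of microtubule genes, with a black line at each median and colours for genes called higher or lower. The tubulin folding list has the highest median (0.81), and the medians of the other 7 lists lie between -0.15 and 0.22.

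In the remaining lists few genes passed the test, where 12.6% of all tested genes were called higher and 9.01% lower. Without any 1 of the WT libraries 0 to 1 gene of each list was called. Of all tested genes, 0 to 4.03% were then called higher and 0 to 3.02% lower. Among plus-end proteins, 1 of 16 was called higher and 2 lower. Mapre3, encoding the end-binding protein EB3, rose (log2 fold change 0.51, adjusted p = 0.0407), and Clasp1 and the polymerase gene Ckap5 fell (-0.69 and -0.65, adjusted p = 0.0351 and 0.0260). Of 11 tested genes for stathmins and severing enzymes, Katnal2 was called higher (0.90, adjusted p = 0.0465) and 0 lower. Of 18 tested tubulin modifying enzymes, 1 was called higher and 0 lower, and it was Svbp, the partner of the detyrosinating vasohibins (1.78, adjusted p = 0.0332). Of 26 tested motor genes, 3 were called higher, with the dynein light chain gene Dynlt1b first (1.56, adjusted p = 0.0334), and 2 lower, with Kif21b first (-1.27, adjusted p = 0.0182).

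Of 20 genes for enzymes that act on tau, 2 were called higher and 1 lower, where 12.6% and 9.01% of all tested genes were. The tau kinase gene Cdk5 had a log2 fold change of 0.86 (adjusted p = 0.0238), with 35.3 to 36.1 CPM in WT and 56.4 to 81.0 CPM in YT-AKO. Ttbk2, another tau kinase gene, fell by 1.17 on the log2 scale (adjusted p = 0.0296). The main tau kinase genes Gsk3a and Gsk3b were not called (0.13 and -0.50, adjusted p = 0.609 and 0.0542).

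Other cell types were followed with marker lists, since tubulin levels differ between cells. For comparison, 12.6% of all tested genes were called higher and 9.01% lower. Proliferation markers, which mark cells that build spindles, summed to 105 to 172 CPM in WT and 81.1 to 134 CPM in YT-AKO, and 0 of 10 were called higher and 1, Top2a, lower. Schwann cell markers summed to 674 to 713 CPM in WT and 499 to 571 CPM in YT-AKO, with 0 of 10 higher and 1 lower. Adipocyte markers summed to 17880 to 23400 CPM in WT and 39830 to 82000 CPM in YT-AKO, with 4 of 10 called higher and 0 lower. This sum is weighted to the most abundant markers, and the median log2 fold change of the list was 0.42. With library totals alone, 1 of the 10 was called higher, where 6.765% of all tested genes were. Of the B cell markers, 0 of 8 were called higher and 4 lower. Calls in the other lists were 2 higher and 1 lower of 8 fibroblast and progenitor markers, 1 higher of 8 mural cell markers, 1 lower each of 8 T cell and 8 endothelial markers, and 0 of 8 macrophage and of 2 tested epithelial markers. The part of these cell types in the tubulin and Mapt values was not tested.

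Promoters were read for the pair of beta-tubulins whose order in TPM differed between the groups. RefSeq sequences for GRCm38.p6 were matched for 7 of the 10 genes (8 promoters). The 250 bases before the start of Tubb4b (chr2:25224703-25224952, minus strand) and of Tubb5 (chr17:35838302-35838551, minus strand) are printed 5′ to 3′, with matches to GGAATG or its reverse complement in capitals.
Tubb4b: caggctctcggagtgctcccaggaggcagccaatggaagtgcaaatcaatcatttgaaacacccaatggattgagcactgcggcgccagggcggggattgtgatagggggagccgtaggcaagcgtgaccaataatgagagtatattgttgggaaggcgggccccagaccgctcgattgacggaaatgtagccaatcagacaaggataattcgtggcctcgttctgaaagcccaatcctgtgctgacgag
Tubb5: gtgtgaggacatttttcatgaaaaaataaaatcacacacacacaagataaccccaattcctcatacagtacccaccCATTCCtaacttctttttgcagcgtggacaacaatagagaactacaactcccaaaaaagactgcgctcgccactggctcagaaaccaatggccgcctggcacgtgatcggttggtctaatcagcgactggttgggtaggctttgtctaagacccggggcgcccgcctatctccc
GGAATG, on either strand, is the core word of the TEAD factors to which YAP and TAZ bind. It occurred in 1 of the 8 promoters, that of Tubb5, 174 bases before the start, and in 12.64% of 32851 promoters of the same length. The word TTGCNNAA, a core of sites for C/EBP factors, was also searched on both strands, overlapped no other match, and occurred in 0 of the 8 and in 9.56% of all. These are descriptions of the sequence.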

How the data were processed

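RNA-seq counts of scWAT from 3 WT and 3 YT-AKO mice (numbers per the study's methods) were used. The authors mapped the reads to mm10 (GRCm38) with HISAT2 and counted fragments on exons with featureCounts 2.0.1 and the GENCODE vM25 annotation, without strand and without fragments that mapped to several places. The deposited values are raw counts per gene, with no filter. Of 55401 genes, 55141 were matched to symbols. Totals ran from 17740987 to 21838493 counts per library. The fragments carry no molecular identifiers, so the floor of 3 counts covers counting error only.

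The groups were compared in R 4.3.3 with edgeR 4.0.16 (TMM, filterByExpr, quasi-likelihood test, Benjamini-Hochberg adjustment over 16807 genes), and a gene was called at an adjusted p under 0.05. TPM used summed exon lengths. The biological coefficient of variation was 0.288. Likeness to Mapt used log2 CPM with a pseudocount of 0.1. Shares were compared with exact permutation tests. Alternatives were DESeq2 1.42.0, limma-voom (limma 3.58.1), other factors and filters, robust dispersion estimates, a block for the replicate number, a gene length spline (6 degrees of freedom) and each library left out. The length correction with the block, TPM and counts of each list under these settings were added after the data were seen. Scripts were tested on simulated data. The labels state no pairing of the mice by replicate number, and libraries with the same number showed small correlations of deviations (0.126, -0.118 and -0.0893).

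The 10 genes, the 8 microtubule lists and the 13 marker lists were chosen with earlier results of these data known. Named beside the 10 genes are up to 4 called genes of largest change per list with a mean of at least 1 CPM, all tested tubulins, the 5 profiles most like Mapt and its 4 neighbours. Map2, Dcx, Ttc5, Tbcb, Cct7, Gsk3a, Gsk3b, Stk16, Tubb3 and the marker genes were named after their values were seen. GENCODE vM21 transcripts gave the sequences. Some items are not reported here.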

Additional observations from a re-analysis of the deposited data

How the results depend on the processing

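Of the 9 genes other than Mapt, 3 were called higher by edgeR (Tubb2a, Tubb4b and Tubb6), where 12.6% of all tested genes were. With a block for the replicate number this was 0, also together with the length correction, and with single libraries left out it was 0 to 3, with 0 without WT 1 or WT 2, where 0% of all tested genes were called higher. With Mapt, which was selected on this comparison and whose own call is no test, the counts of members called higher were 4, 1 with the block with or without the length correction, and 0 to 4 with libraries left out. Higher calls among tubulin genes went from 6 to 0 with the block, with or without the length correction, and were 0 to 6 with libraries left out. Of all tested genes, 0.143% were called higher with the block and 0.351% with the length correction added. With libraries left out this share was 0% to 16.86%. Lower calls among tubulin genes went from 0 to 1 with DESeq2, limma-voom, library totals alone and no filter, and were 0 to 1 with libraries left out. The share of all tested genes called lower was 9.01% by edgeR. It was 7.48% with DESeq2, 9.80% with limma-voom, 16.78% with library totals alone and 5.86% with no filter. Higher calls among structural MAP genes, Mapt included, went from 2 to 1 with 10 counts in every library and with the block, with or without the length correction, and were 0 to 2 with libraries left out, which without Mapt is from 1 to 0 and 0 to 1. With 10 counts in every library, 14.76% of all tested genes were called higher. Lower calls among structural MAP genes went from 4 to 2 with the length correction and to 0 with the block, with or without it, and were 0 to 4 with libraries left out. Of all tested genes, 4.54% were called lower with the length correction, 0.05355% with the block and 0.1309% with both. With libraries left out this share was 0% to 13.98%. The block also ended the calls of Tubb2a, Tubb4b and Tubb6 (adjusted p = 0.0763, 0.0618 and 0.0584) and left 0.143% of all genes called higher. No pairing of the mice by replicate number is stated in the labels, and the small correlations of deviations cannot exclude one. Why calls were lost under the block was not tested, and the loss is not read as a weaker effect.

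Log2 fold changes that changed sign were those of genes not called by edgeR, with main values from -0.142 (Map1b) to 0.357 (Tuba1b). With the length correction and with it and the block, respectively, they were 0.438 and 0.446 for Map1b and 0.574 and 0.561 for Map4. Tuba1b was -0.00838 with both and -0.36 in TPM, and Tubb5 was -0.169 with library totals alone and -0.51 in TPM. With libraries left out, Map1b ranged from -0.292 to 0.0471, Map4 from -0.0315 to 0.00227 and Tuba1a from -0.296 to 0.237. The cause was not tested beyond the shift of the median of all genes between scales. TPM, the length correction with the block and the counts of each list under these settings were chosen after seeing the data. The 7 isotype shares of the tubulins described kept their direction under the alternatives run and moved by less than the pooled SD of both groups, but in several cases by more than the SD of the tighter group. With 3 libraries a group, exact tests cannot go below 0.1. Levels of a few counts, such as those of Map7d2 and Tube1, are limited by depth.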
